A study of Mus musculus with 4 samples.

Results

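The genes described here are 10 markers of tissue-resident macrophages: Csf1r, Cd68, Adgre1, Lyz2, Mrc1, Cd163, Lyve1, C1qa, C1qb and C1qc. They were taken by symbol from the platform annotation, and each was represented by a probe set that carries exactly 1 symbol. Where a gene had several such probe sets, the one with the highest mean over all 4 arrays was to be used, but each of the 10 genes had only 1. They stand among 22180 genes with such a probe set. The samples were plantarflexor tendons, the Achilles and plantaris of each animal combined, from untreated wild-type C57Bl/6 mice aged 4 months. RNA of 2 male and 2 female samples was hybridised to arrays of a Mouse Gene ST 2.1 strip, 1 array per sample, to describe normal expression in both sexes. The labels name tenocytes as the cell type, but whole tendon was homogenized, so RNA of every cell type in the tissue was measured. They also give 3 RNA wells per sample. Whether each sample is a different mouse is not stated, so a p-value here reflects the scatter of the samples as labelled, part or all of which may be technical.

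Macrophages are phagocytes that live in most tissues, where they clear dead cells and debris, and in tendon they lie mainly in the sheath and around vessels. Their survival depends on signalling through the receptor encoded by Csf1r, which is bound by the ligands Csf1 and Il34. Resident macrophages carry scavenger and lectin receptors on their surface and are a main source of C1q, the molecule that starts the classical complement pathway.

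All values are the authors' log2 RMA values, so they are on a log scale; RMA is a background correction, normalization and summary method for such arrays. The array medians over all rows lay between 2.266 and 2.303, and a value near them is not told from background signal. All 10 markers lay above the median of the array on all 4 arrays. The probe sets with exactly 1 symbol had higher medians, 2.439 to 2.466, so most of them lie above that cut on any array. The count is thus weak evidence that a marker was detected. Cd163, at 2.62 to 2.90, and C1qa in male 1, at 2.76, lay close to the cut. Levels of different genes are not compared, because each probe set has its own response. Xist, the non-coding RNA of the inactive X chromosome, was at 2.47 and 1.98 in the male samples and 7.34 and 8.04 in the female samples, as the sex labels state.

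Of the 10 markers, 9 had their highest value in the same sample, female 2. Over all 23521 probe sets tested, 24.8% were highest there, and the share was 27.7% among the 11760 above the median level. For 8 of the 10 markers the value in female 2 exceeded the next highest array by over 0.5, a margin that 3.40% of all probe sets showed, and 5.96% of those above the median level. More cells of a type and more RNA per cell cannot be told apart in such bulk tissue.

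**Figure D1:**
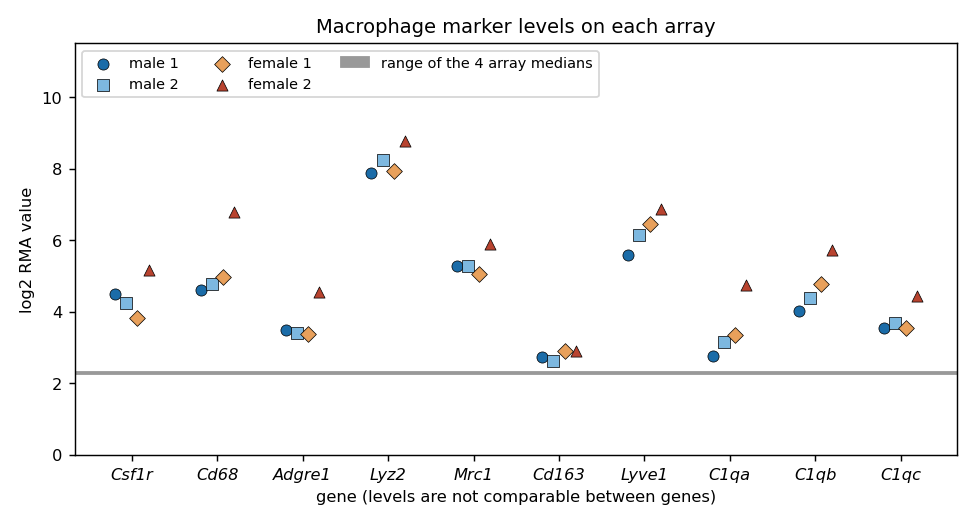
Log2 RMA values of the 10 macrophage markers on the 4 arrays, 1 point per array, with the grey band showing the range of the array medians. The triangle of female 2 is the highest point for every marker except Cd163, whose 4 values lie close above the band.

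Csf1r encodes the receptor tyrosine kinase on which macrophages depend. It was at 4.51 in male 1, 4.23 in male 2, 3.81 in female 1 and 5.16 in female 2. The female samples thus enclosed the male ones, being both the lowest and the highest. Cd68, a lysosomal membrane glycoprotein gene used as a general macrophage marker, read 4.62 in male 1, 4.77 in male 2, 4.97 in female 1 and 6.78 in female 2. The 3 other samples lay within 0.351 of each other, and female 2 was 1.81 above the next, a ratio of 3.5. This was the widest range of the 10 markers, 2.16 over the 4 arrays. Adgre1, which encodes the adhesion receptor used to identify mouse macrophages, was at 3.49, 3.42 and 3.38 in male 1, male 2 and female 1, and at 4.56 in female 2. Its first 3 samples spanned 0.102, the narrowest span of any marker, and female 2 was 1.07 above them. Lyz2, a lysozyme gene of macrophages and neutrophils, was at 7.89 and 8.25 in the male samples, 7.93 in female 1 and 8.77 in female 2. Female 2 was again the highest, by 0.518, and the remaining female sample lay between the males. The close paralog Lyz1 was at 3.45, 2.58, 3.07 and 5.08 in the same order of samples, and whether probes of one gene also bind the other was not tested.

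Of the scavenger and lectin receptor genes, Mrc1 and Cd163 had the narrowest ranges of the 10 markers, while Lyve1 spanned 1.27. Mrc1, the mannose receptor gene, was at 5.28 in male 1, 5.27 in male 2, 5.07 in female 1 and 5.90 in female 2. The males differed by less than the females, whose SD was 0.585 against 0.008. Cd163, the gene of the haemoglobin-haptoglobin scavenger receptor, was at 2.74, 2.62, 2.90 and 2.90 in male 1, male 2, female 1 and female 2. Its whole range was 0.283, it lay closest of the 10 to the array medians, and female 1 and female 2 differed by 0.004. Lyve1, a hyaluronan receptor gene expressed by a perivascular subset of macrophages and by lymphatic endothelium, was at 5.60 and 6.14 in the males, 6.46 in female 1 and 6.86 in female 2. Both female samples lay above both male samples, and female 2 was only 0.402 above female 1. Prox1, a transcription factor gene used as a marker of lymphatic endothelium, was at 1.92 and 2.29 in the males and 3.82 and 3.32 in the females. Of the 6 measured lymphatic endothelial markers 4 were lower in females, but only 1 lay above the median of the array on all 4 arrays. The part of lymphatic vessels in the Lyve1 values was not tested.

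C1qa, C1qb and C1qc encode the A, B and C chains that together form C1q, and lie next to each other on chromosome 4 in the RefSeq gene order. C1qa was at 2.76 and 3.17 in the males, 3.34 in female 1 and 4.76 in female 2. C1qb was at 4.03 and 4.39 in the males, 4.78 in female 1 and 5.74 in female 2. For both genes male 1 was lowest and both female samples lay above both males. C1qc did not share that order of samples: it was at 3.55, 3.70, 3.56 and 4.44 in male 1, male 2, female 1 and female 2. Its first 3 samples spanned 0.151, against 0.580 for C1qa and 0.746 for C1qb. The ranges over 4 arrays were 2.00, 1.71 and 0.893 for C1qa, C1qb and C1qc, so the 3 chains of 1 molecule had unequal shifts on these arrays.

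Promoter sequence was matched by symbol for 6 of the 10 markers in RefSeq (GRCm38.p6), each a window of 250 bases before to 50 after the start site. It was searched on both strands for the PU box GAGGAA, the core letters bound by the myeloid factor PU.1 (encoded by Spi1), for the AP-1 site TGANTCA and for the E-box CACGTG. The PU box was in 4 of the 6 windows (Mrc1, Cd68, C1qb and C1qc), and in 28.3% of 32851 mouse promoter windows of the same length. The AP-1 letters were in 1 of the 6, Cd68, and in 7.81% of all windows, and the E-box was in 0 of the 6 and in 7.15% of all. Of these windows, 4 are printed 5′ to 3′ on the strand of the gene, with matches to the PU box (either strand, so also as TTCCTC) and to the AP-1 site in capitals; no matches overlap. They are Cd68, with the widest range over the arrays, Cd163, with the narrowest, and the neighbours C1qb and C1qc, whose order of samples differed. The windows are chr11:69666121-69666420 (minus strand) for Cd68, chr6:124304401-124304700 (plus strand) for Cd163, chr4:136886151-136886450 (minus strand) for C1qb and chr4:136892865-136893164 (minus strand) for C1qc.
Cd68: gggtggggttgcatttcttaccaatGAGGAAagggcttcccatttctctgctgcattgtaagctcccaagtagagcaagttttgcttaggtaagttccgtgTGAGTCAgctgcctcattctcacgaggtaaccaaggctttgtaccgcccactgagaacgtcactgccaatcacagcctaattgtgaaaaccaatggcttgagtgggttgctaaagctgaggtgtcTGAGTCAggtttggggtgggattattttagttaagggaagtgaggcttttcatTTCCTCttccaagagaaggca
Cd163: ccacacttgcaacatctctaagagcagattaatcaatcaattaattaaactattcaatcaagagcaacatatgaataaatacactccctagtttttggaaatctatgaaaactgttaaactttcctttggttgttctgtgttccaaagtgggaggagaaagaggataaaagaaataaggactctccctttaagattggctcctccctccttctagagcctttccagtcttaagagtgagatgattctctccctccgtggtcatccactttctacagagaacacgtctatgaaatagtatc
C1qb: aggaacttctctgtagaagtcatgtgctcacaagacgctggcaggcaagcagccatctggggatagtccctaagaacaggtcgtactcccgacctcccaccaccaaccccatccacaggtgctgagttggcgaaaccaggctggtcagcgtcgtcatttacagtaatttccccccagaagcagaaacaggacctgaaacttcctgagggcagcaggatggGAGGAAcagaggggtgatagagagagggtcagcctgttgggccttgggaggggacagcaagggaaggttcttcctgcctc
C1qc: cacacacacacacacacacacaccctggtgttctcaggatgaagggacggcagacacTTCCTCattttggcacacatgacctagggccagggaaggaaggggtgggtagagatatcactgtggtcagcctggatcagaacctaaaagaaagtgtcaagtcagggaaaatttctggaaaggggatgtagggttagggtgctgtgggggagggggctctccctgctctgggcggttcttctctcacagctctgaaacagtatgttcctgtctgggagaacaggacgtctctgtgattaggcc
The Cd68 window held 2 PU boxes and 2 AP-1 sites, C1qb and C1qc held 1 PU box each, and Cd163 and Lyz2 held 0 matches. Mrc1 held 3 PU boxes, all on the opposite strand. These matches describe letters in the windows and not binding.

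To describe how far the markers moved together, each value was set against the mean of its gene over the 4 arrays. In female 2 all 10 markers lay above their own mean, with a median deviation of 0.68 and a range from 0.11 (Cd163) to 1.49 (Cd68). In male 1 only 1 of 10 did (Csf1r, at 0.08), with a median of -0.29. In male 2 it was again 1 of 10 (Lyz2, at 0.04), with a median of -0.18. In female 1 it was 3 of 10 (Cd163, Lyve1 and C1qb), with a median of -0.27. The median deviation of all probe sets lay between -0.01 and -0.001 on each array. The markers therefore shared their high sample but not their low one: male 1 was lowest for 6 of 10 (Cd68, Lyz2, Lyve1 and the C1q genes) and for 26.6% of all probe sets, female 1 was lowest for Csf1r, Adgre1 and Mrc1, and male 2 for Cd163.

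**Figure D2:**
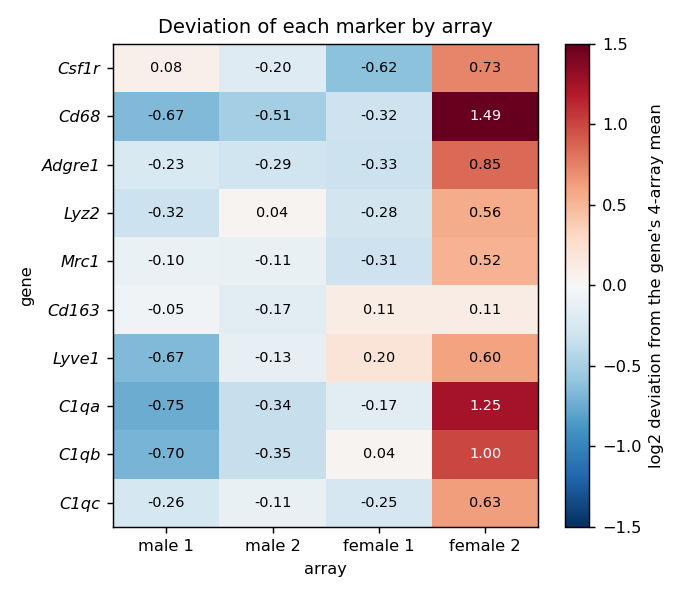
Log2 deviation of each macrophage marker from its own mean over the 4 arrays, with red above and blue below the mean. Female 2 is above the mean for all 10 genes, from 0.11 for Cd163 to 1.49 for Cd68, while the 3 other arrays differ from gene to gene.

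Likeness was measured as the root mean square difference between centred profiles over the 4 arrays, where 0 means the same profile. Over the 45 pairs of markers it had a median of 0.37 and was smallest for Lyz2 with C1qc (0.09) and Mrc1 with C1qc (0.10). It was largest for Cd68 with Cd163 (0.80) and Cd163 with C1qa (0.69). C1qa with C1qb was at 0.16. Against the mean profile of the 9 other markers, C1qc (0.119) and Adgre1 (0.124) were nearest, and Cd68 (0.467) and Cd163 (0.443) were farthest. Of the probe sets of all other genes, 58.2% lay nearer to that mean than Cd68 did, and 21.6% nearer than Cd163. The share was 0.306% for C1qc and 0.387% for Adgre1, and ran from 1.45% (Lyz2) to 15.7% (C1qa) for the rest. The mean profile of the 10 markers itself lay 0.45 from a flat line. Cd68 was far because its shift was wider, and Cd163 because it was nearly flat.

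Among 11098 other genes with a mean above the median of 2.46, the 10 whose profile was nearest to the mean profile of the markers were Cd302, Nup88, Mrtfb, Aagab, Rarg, Thbs4, 0610043K17Rik, Cgnl1, Tnxb and Srpx2. Their distances ran from 0.024 for Cd302 to 0.069 for Srpx2, over 4 arrays. Cd302, a C-type lectin receptor gene, was at 3.64 and 3.86 in the males, 3.85 in female 1 and 4.82 in female 2. Thbs4, the thrombospondin gene of tendon matrix, was at 7.31, 7.32, 7.36 and 8.28 in the same order. Tnxb, the gene of the matrix protein tenascin X, was at 5.78, 6.02, 5.92 and 7.06. These genes were picked for a profile like that of the markers, so their high value in female 2 follows from the choice. A further probe set of Mrtfb did not follow, at 2.56, 2.62, 3.10 and 2.51. In all, 62 of the 11098 genes lay nearer to the mean profile of the 10 markers than C1qc lay to that of the 9 others.

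The sexes were then compared. All 10 markers had a higher mean in females, with a median difference of 0.45, a ratio of 1.36, and a median SE of 0.35. Over all probe sets tested the share higher in females was 48.8% and the median difference -0.006. None passed the test: limma with Benjamini-Hochberg adjustment over 23521 probe sets called 0 of the 10 markers, and 0 (0%) of all probe sets. Xist, with a difference of 5.47 (SE 0.317), had an adjusted p of 0.772 in limma. The test thus did not call even Xist, so 0 calls do not show that marker levels are equal in the sexes. At an unadjusted p under 0.05 in limma there were 2 markers, Lyve1 and C1qb, both higher in females, and 1056 probe sets in all, or 4.49% (2.64% higher in females). Both female samples lay above both male samples for 5 markers (Cd68, Cd163, C1qa, C1qb and Lyve1), and for 15.8% of all probe sets. With 2 samples a sex, an exact two-sided permutation test cannot give a p below 0.333.

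The male mean of Lyve1 was 5.87 ± 0.38 (SD, n = 2) and the female mean 6.66 ± 0.28 (SD, n = 2). The difference was 0.79 (SE 0.27, 95% interval 0.08 to 1.51), with an unadjusted p of 0.036 and an adjusted p of 0.969 in limma. For C1qb the male mean was 4.21 ± 0.25 (SD, n = 2) and the female mean 5.26 ± 0.68 (SD, n = 2). Its difference was 1.05 (SE 0.37, 95% interval 0.06 to 2.04), with an unadjusted p of 0.0425 and an adjusted p of 0.969 in limma. The widest measured differences were those of Cd68 (1.18, SE 0.63) and C1qa (1.09, SE 0.52), whose 95% intervals reached below 0. Adgre1 differed by 0.52 (SE 0.42), C1qc by 0.38 (SE 0.33) and Lyz2 by 0.28 (SE 0.34). For Cd163 the difference was 0.22 (SE 0.14), for Mrc1 0.21 (SE 0.31) and for Csf1r 0.12 (SE 0.48, 95% interval -1.18 to 1.41). The SD was larger in females than in males for 8 of the 10 markers, the exceptions being Cd163 and Lyve1, and for 49.8% of all probe sets.

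The direction rested on female 2 for 5 of the markers. Without that array 5 of 10 remained higher in females, with a median of 0.08. Csf1r was then at -0.56, Mrc1 at -0.20, Lyz2 at -0.14, Adgre1 at -0.07 and C1qc at -0.06, so female 1 alone lay below the male mean for these. Cd68 was at 0.27, C1qa at 0.38, C1qb at 0.57, Lyve1 at 0.59 and Cd163 at 0.22 without female 2. Without female 1 the median was 0.91 and Cd68 was at 2.08. Without male 2, Csf1r was at -0.02 and the median was 0.47; without male 1 the median was 0.41 and all 10 stayed higher in females.

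**Figure D3:**
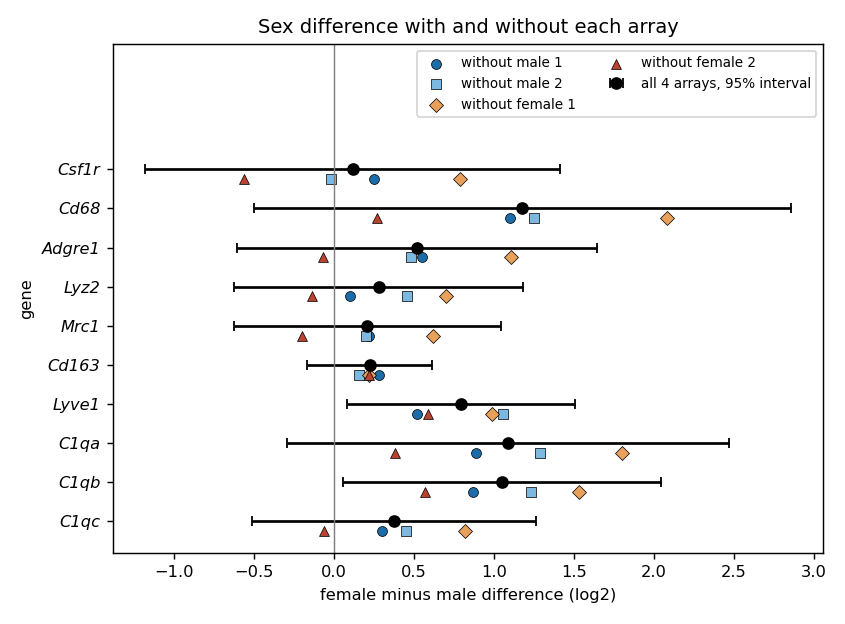
Female minus male difference on the log2 scale for each macrophage marker, as black points with the 95% interval of the limma fit to all 4 arrays, and as coloured symbols with 1 array left out. All 10 black points lie above 0, 8 of the intervals include 0, and without female 2 the differences of Csf1r, Adgre1, Lyz2, Mrc1 and C1qc lie below 0.

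Genes that act with the markers were examined in further lists. The Csf1r ligands and myeloid regulators had a median difference of 0.14, with 9 of 11 measured genes higher in females and 0 called. Without male 1 the median was -0.07 and 5 of 11 were higher, and without female 2 it was 0.04 with 6 of 11. It was 0.08 without female 1 and 0.23 without male 2. The ligand gene Csf1 was at 4.49 and 5.19 in the males, 4.45 in female 1 and 5.51 in female 2, and the ligand gene Il34 was at 2.68, 3.08, 3.05 and 2.84. Spi1, which encodes PU.1, was at 2.26, 2.77, 2.55 and 3.46, so its highest sample was female 2. Maf, a transcription factor gene of resident macrophages and of several other tissues, was at 7.71 and 7.65 in the males against 6.25 and 6.19 in the females. Its difference of -1.46 (SE 0.14) had an adjusted p of 0.969 in limma. Maf thus lay lower in both female samples, and not high in female 2 as the markers did.

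Of 24 other macrophage and myeloid markers, 17 were highest in female 2, with a median deviation of 0.56 there and of -0.20 to -0.10 on the other arrays. As for sex, 18 of 24 were higher in females with a median difference of 0.24 and 0 called; without female 2 it was 10 of 24, with a median of -0.05, and without female 1 it was 22 of 24, with a median of 0.69. Fcer1g, a signalling subunit of Fc receptors, was at 4.99 and 5.03 in the males, 5.51 in female 1 and 6.73 in female 2. Itgb2, the leukocyte integrin gene, was at 2.92, 3.01, 3.48 and 4.55. Both had the same order of samples as C1qb. Ptprc, the gene of the leukocyte antigen CD45, was at 2.57 and 2.26 in the males, 2.20 in female 1 and 3.75 in female 2. Others did not follow: Cx3cr1, the fractalkine receptor gene, lay between 5.12 and 5.28 on all arrays, and Aif1, the gene of the macrophage protein Iba1, was at 3.71 in male 1 and 2.69 in female 2. Ptprc, Cx3cr1 and Aif1 were chosen after their values were seen.

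Among 18 markers of tissue-resident macrophage subsets, 11 were highest in female 2, with a median deviation of 0.23. The widest differences were those of Retnla and Vsig4. Retnla, a secreted resistin-like gene of alternatively activated macrophages, was at 5.85 and 6.72 in the males, 6.99 in female 1 and 9.08 in female 2. Vsig4, a complement receptor gene of resident macrophages, was at 1.93, 3.38, 3.32 and 5.23. For both, male 1 was lowest and female 2 highest. Folr2, the folate receptor gene of a resident subset, was at 3.32, 3.74, 3.66 and 5.14 and was chosen after its values were seen. In all, 12 of 18 were higher in females with a median of 0.09 and 0 called, and 9 of 18 without female 2, with a median of -0.03. The median was 0.34, 0.22 and 0.19 without female 1, male 1 and male 2. Of the 18, 5 lay below the median of the array on all 4 arrays, among them Siglec1, a sialic acid receptor gene of macrophages.

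**Figure D4:**
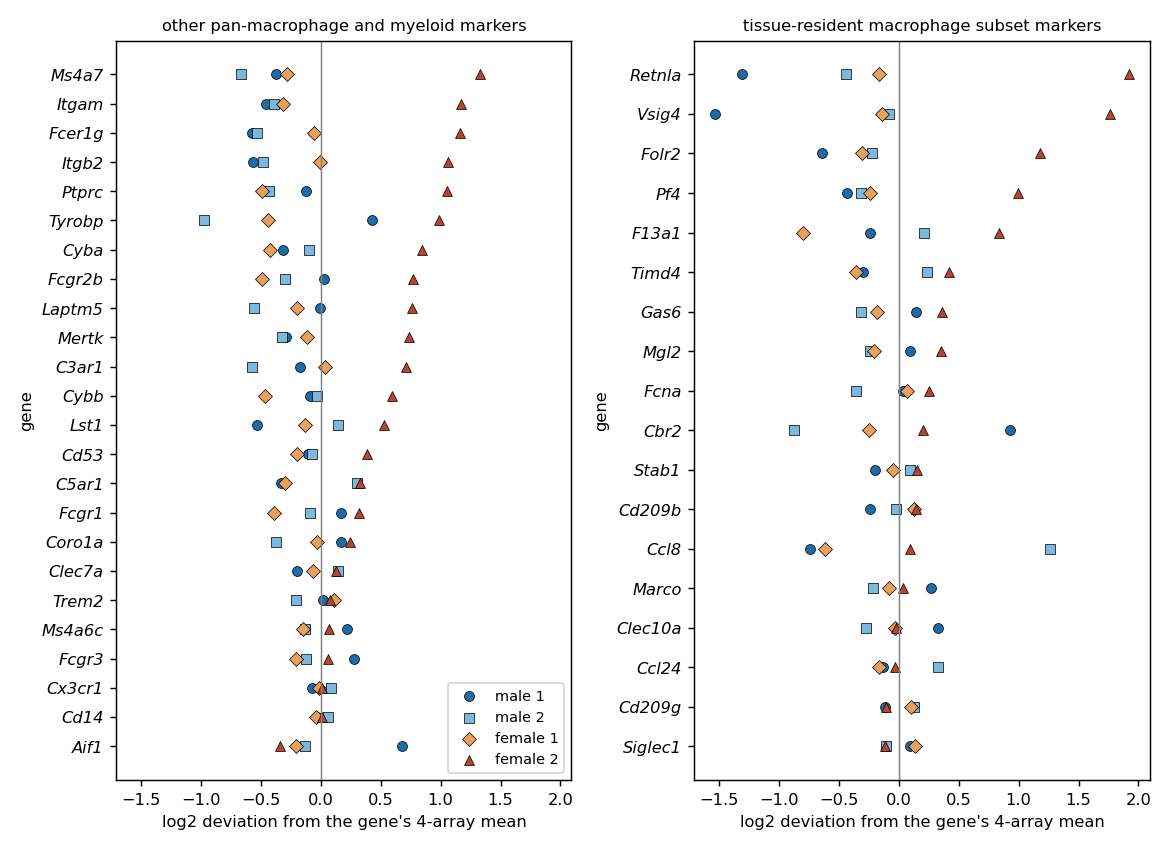
Log2 deviation from the 4-array mean for 24 other macrophage and myeloid markers and 18 markers of tissue-resident subsets, sorted by the value in female 2. The triangles of female 2 are the highest points for 17 of the 24 and 11 of the 18 genes, while Aif1 and Cbr2 are highest in male 1 and Ccl8 in male 2.

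The partners of C1q in the classical complement pathway were mixed. Of 8 measured, 2 were highest in female 2, and the median deviation there was -0.10. C1ra, a protease gene of the C1 complex, lay between 3.54 and 3.75 on all arrays. Serping1, the gene of the C1 inhibitor, was at 8.13 and 7.98 in the males, 8.21 in female 1 and 9.01 in female 2. Cd93, an endothelial and myeloid receptor gene once described as a C1q receptor, was at 2.96 and 3.01 in the males and 3.35 and 3.90 in the females. Its difference was 0.64 (SE 0.23). Cd93 had the order of samples of C1qa and C1qb. Of the 8, 3 were higher in females with a median of -0.06 and 0 called. That direction turned without male 1 (0.08), without male 2 (0.07) and without female 2 (0.21); leaving out female 1 gave -0.10. MHC class II genes, which present antigen on macrophages and dendritic cells, were highest in female 2 in 5 of 6, with a median deviation of 1.00. H2-Eb1, which encodes a class II beta chain, was at 2.58 and 2.78 in the males, 3.18 in female 1 and 4.63 in female 2. The alpha chain gene H2-Aa stood higher in that sample too, at 6.10. H2-Ab1 was at 7.72 and 5.38 in the males, 5.93 in female 1 and 8.19 in female 2, so male 1 was nearly as high. Ciita was the exception, lowest in female 2 at 2.25 and between 2.49 and 2.55 elsewhere.

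Markers of other blood-derived cells were set against the array medians in the same way. Of the monocyte markers 5 of 9, of the dendritic cell markers 4 of 8 and of the neutrophil markers 0 of 12 lay above the median of the array on all 4 arrays, against 10 of 10 macrophage markers. Many genes of the monocyte, dendritic cell and neutrophil lists were thus too close to background for their deviations in female 2 to be read. Of the other macrophage and myeloid markers 16 of 24 lay above it on all 4 arrays, and of the resident subset markers 10 of 18. So did 10 of 10 blood endothelial markers, so these counts do not set macrophages apart from other cell types. Of the neutrophil markers 7 of 12, of the lymphocyte markers 6 of 9 and of the mast cell markers 4 of 6 lay below the median of the array on all 4 arrays, against 0 of the 10 macrophage markers. The neutrophil genes Retnlg and Ly6g were among them, as were the T cell receptor genes Cd3d, Cd3e and Cd3g. The monocyte receptor gene Ccr2 was an exception within its list, at 4.17 in female 2 and between 2.52 and 2.85 elsewhere. Osteoclast markers, another macrophage-related cell type, lay below the median of the array on all 4 arrays in 3 of 7 genes, while Ctsk, a collagen-degrading cathepsin gene that fibroblasts also express, was at 5.20 in female 2 and between 3.63 and 4.10 elsewhere.

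Markers of the tissue itself were compared across the samples. Skeletal muscle markers were highest in female 2 in 0 of 12, with a mean log2 level of 8.51 against 9.51 and 9.53 in the males and 9.59 in female 1. Genes of fast fibres were among the low ones: Mybpc2 was at 6.20 in female 2 against 8.62 to 9.72 on the other arrays, and Actn3 at 6.68 against 9.41 to 10.01. The myosin genes were divided. Myh4 was at 7.35 in female 2 against 10.20 to 10.61 on the other arrays, and Myl1 at 6.66 against 7.52 to 7.76. Myh1 (8.93), Myh2 (9.34) and Myh7 (8.49) lay above both males in female 2. The median deviation of the list there was -0.37. Tendon markers were highest there in 6 of 10, with a mean level of 6.91 against 6.72, 6.37 and 6.12 in male 1, male 2 and female 1; the median deviation was 0.23 there and 0.22 in male 1. The tendon-defining genes Scx and Tnmd lay above the median of every array, and Mkx was below it in female 1 alone. Interstitial fibroblast markers had a mean level of 6.60 in female 2, 5.99 in female 1, and 6.33 and 5.61 in the males. Adipocyte markers were highest there in 5 of 7, with mean levels of 4.68 and 5.37 in the males, 5.77 in female 1 and 6.05 in female 2. Blood endothelial markers were highest there in 3 of 10, with a mean level of 4.24, against 3.80 to 4.15 on the other arrays. The macrophage markers themselves had mean levels of 4.45 and 4.59 in the males, 4.62 in female 1 and 5.59 in female 2. The part that the makeup of the dissected tissue had in the macrophage values was not tested.

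For sex, 0 genes were called by limma in any of these lists. Of the monocyte markers 1 of 9 was higher in females (median -0.16), but 5 of 9 were without female 1 (0.01) and 0 of 9 without female 2 (-0.27). Neutrophil markers were higher in 6 of 12 (-0.02), with a median of 0.05 without male 1 or female 1, -0.07 without female 2 and -0.09 without male 2. Medians with 1 array left out ran from -0.09 (without female 2) to -0.04 (without female 1) for dendritic cell markers, of which 3 of 8 were higher (-0.10). They ran from -0.21 (without female 2) to -0.01 (without female 1) for mast cell markers, 2 of 6 higher (-0.12), and from -0.10 to -0.06 for lymphocyte markers, 2 of 9 higher (-0.08). The 2 widest differences of each of these 5 lists were those of S100a8 (-0.77), Nr4a1 (-0.71), Ccr2 (0.62), Mcpt4 (-0.62), Ccr7 (-0.47), Cxcr2 (0.42), Cd4 (-0.36), Cd209a (-0.23), Cd79b (0.22) and Kit (0.20). Among lymphocyte markers Cd3e (-0.22) was as wide as Cd79b, in the opposite direction. The osteoclast list had 3 of 7 higher (-0.05), with -0.20 without female 2 and -0.01 without male 2, and Ocstamp was at -0.46 and Ctsk at 0.35. The lymphatic endothelial list had 2 of 6 higher (-0.21), with -0.37 without female 2 and -0.05 without female 1, and Prox1 was at 1.46 and Reln at -0.42. Among MHC class II genes 5 of 6 were higher (0.42), with H2-Aa at 1.93 and H2-Eb1 at 1.23. Their median was 0.06 without female 2, 0.27 without male 2, 0.81 without male 1 and 1.23 without female 1.

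Of the tissue lists, 6 of 7 adipocyte markers were higher in females (median 1.07), led by the lipid droplet genes Plin4 (1.59) and Cidec (1.57). Their median was 0.49 without male 1, 0.66 without female 2, 1.47 without female 1 and 1.64 without male 2. Interstitial fibroblast markers were higher in 3 of 4 (0.39), with Pi16 at 0.91 and Pdgfra at 0.74. Their median was 0.04 without female 2, 0.31 without male 2, 0.73 without female 1 and 0.74 without male 1. Blood endothelial markers were higher in 6 of 10 (0.10), but in 4 of 10 without male 1 (-0.12). Their median was 0.01 without female 2, 0.19 without female 1 and 0.21 without male 2. Emcn, with a difference of 1.45, was at 2.32 in male 1 against 4.70 to 5.12 on the other arrays, and Cldn5 differed by -0.87. Tendon markers were higher in 4 of 10 (-0.06), with Thbs4 at 0.51 and Comp at 0.50. That direction turned without male 1 (0.07) and without female 1 (0.15, 8 of 10 higher). Leaving out male 2 gave -0.20, and leaving out female 2 gave -0.42. Skeletal muscle markers were higher in 4 of 12 (-0.31), with Mybpc2 at -1.96 and Actn3 at -1.79. Their median was -0.06 without female 2, -0.23 without male 1, -0.30 without male 2 and -0.53 without female 1.

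**Figure D5:**
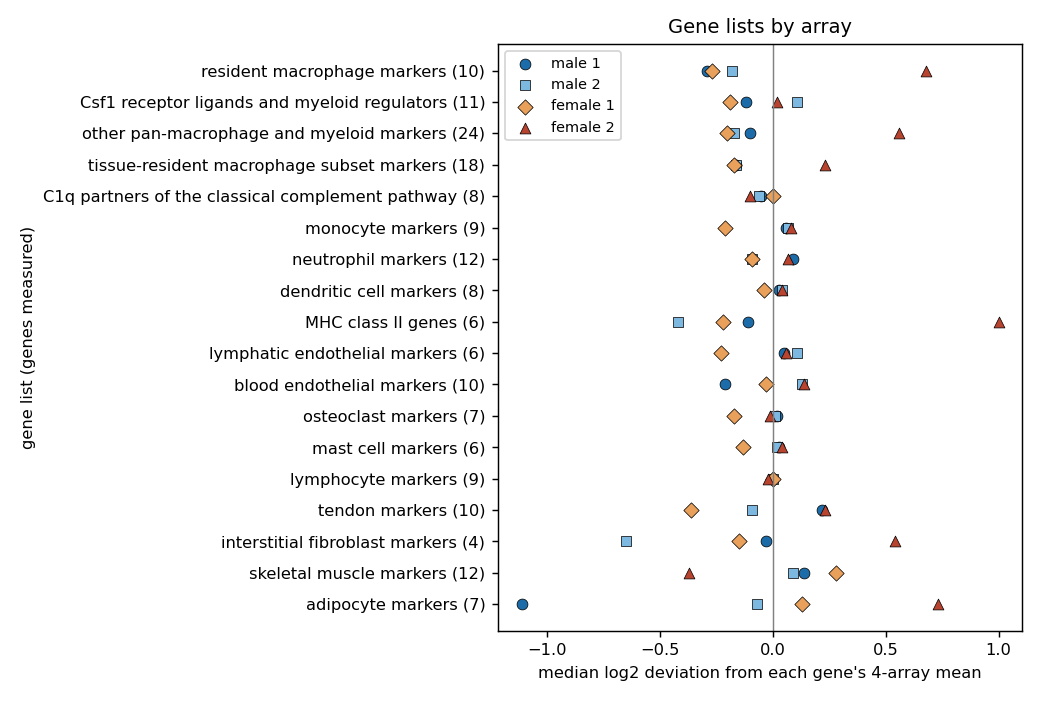
Median log2 deviation from the 4-array mean for each gene list, 1 symbol per array, with the number of measured genes in brackets. Female 2 stands highest for the macrophage markers (0.68), the other myeloid markers (0.56), MHC class II genes (1.00) and adipocyte markers (0.73), among others, and lowest for skeletal muscle markers (-0.37).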

How the data were processed

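The authors deposited log2 values, 1 column for each of 4 arrays. Per the submitters' processing notes they were made with oligo and RMA. Their versions, the summary level and the annotation used are not given in the sources used here. RMA and the range of the values, 0.517 to 11.933, gave the log2 scale. Nothing was normalized again. Precision is limited by the number of arrays, with a median SE of 0.187 per difference.

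Of 41345 rows in the deposited table, GEO's platform annotation left 16010 without a symbol, put several on 1814 and exactly 1 on 23521, and the last were tested. By Entrez ID 23328 matched the RefSeq gene table (GRCm38.p6), which changed 0 symbols.

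Differences are female minus male, from lmFit and eBayes of limma 3.58.1 (R 4.3.3) with sex as the only term, with Benjamini-Hochberg adjustment over all probe sets and a threshold of 0.05. The procedure was run on simulated data with known differences. The check was only that the estimates matched the differences put in, so it does not show how often such differences are called. Python 3.11.15 with matplotlib 3.10.9 drew the figures. The alternatives changed 1 setting at a time: every row of the table, brighter probe sets alone, another prior (trended and robust), a second quantile normalization, median centring, array weights, a replicate block, gene means over probe sets, an adjusted p under 0.1, and each array left out.

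The markers and lists were chosen with earlier results of these data known. The other lists were written from general knowledge of cell types: Csf1r ligands and myeloid regulators, other macrophage markers, resident subset markers, C1q partners, MHC class II, and markers of monocytes, neutrophils, dendritic cells, mast cells, lymphocytes, osteoclasts, both endothelia, tendon, fibroblasts, muscle, adipocytes and erythrocytes. The rule for names took the 10 markers, the 2 genes of widest sex difference in each list and the 10 genes of nearest profile; further examples were chosen after their values were seen. Erythrocyte markers had 0 probe sets with exactly 1 symbol and are not analysed here.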

Additional observations from a re-analysis of the deposited data

How the results depend on the processing

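Under the 9 alternatives that kept all arrays, limma called 0 probe sets. Most of them change the spread or the adjustment and cannot change the difference of a marker. Of those that can, a second quantile normalization gave a median of 0.39 and median centring 0.47, with all 10 markers higher in females. Array weights cannot favour either array of a pair when each sex has only 2, so the median of 0.45 under them is no check on female 2. The replicate numbers did not pair the samples, since the differences between samples 1 and 2 of each sex had a correlation of -0.06 across probe sets. With the replicate number as a block the median was 0.45 and 0 markers were called. In that fit 3 markers, and 981 of 23521 probe sets, had an unadjusted p under 0.05 in limma. The count of markers was 2 in the main fit and 1 with every row or with the trended and robust prior. It was 0 with a second quantile normalization.

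With 1 array left out, limma again called 0 probe sets, the median of the markers ran from 0.08 to 0.91, and the direction turned in 6 of 40 marker values. Differences ran from -0.56 to 0.79 for Csf1r, from -0.07 to 1.11 for Adgre1, from -0.20 to 0.62 for Mrc1, from -0.14 to 0.70 for Lyz2 and from -0.06 to 0.82 for C1qc. The lowest values were those without female 2 and the highest those without female 1. These fits assume that a lone array varies as the pair of the opposite sex does. Leaving out each array was also tried for the other lists, chosen after seeing the data, and moved 20 list medians by more than their spread between replicates. That spread rests on 2 samples a sex and was only 0.01 for lymphocyte markers. Their median of -0.08 counted as moved at -0.06, so the count does not measure how unstable a list is.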

Other observations

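Several genes of myeloid cells had their highest value in a male sample and not in female 2. Ccl8, a chemokine gene of resident macrophages, was at 4.41 in male 2, 3.24 in female 2 and 2.40 and 2.53 in male 1 and female 1. Cbr2, a carbonyl reductase gene that marks resident macrophages in several mouse tissues, was at 5.85 in male 1, 4.04 in male 2, 4.67 in female 1 and 5.12 in female 2. S100a8, a calcium-binding protein gene of neutrophils and monocytes, reached 3.47 in male 1, while the other samples lay between 1.64 and 1.81, below the medians of their arrays. Nr4a1, a nuclear receptor gene that is also induced by brief stimuli, was at 5.89, 5.59 and 5.69 in male 1, male 2 and female 1, and at 4.37 in female 2. Ccl8 and Cbr2 were chosen after their values were seen.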
